A study of Mus musculus with 5 samples.

Results

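Ovalbumin alone was set against phosphate-buffered saline (PBS) in cells lavaged from the peritoneum of female BALB/c mice. One group of mice received PBS and the other 25 µg of ovalbumin (OVA), both by intraperitoneal injection, and the cells were collected 2 h later. These are 2 of the 5 arrays of the series, 1 array for each injection, and all genes and probes detected on them were compared. The 3 remaining arrays carried 50 µg of AEPS (the polysaccharide from roots of Actinidia eriantha), OVA with the same dose of AEPS (OVA+AEPS), or OVA with 200 µg of alum (OVA+Alum), in mice of the same strain and sex at the same time. Their values are given beside those of OVA and PBS only to place them. Whether RNA of several mice was pooled for an array is not given in the sources used here, and neither is the age of the mice. With 1 array a group, none of the differences could be checked against replicates, and p-values are not given.

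A gene counted as measured if the scanner flagged its probe as well above background on the PBS array, the OVA array or both, which held for 15041 of the 20121 genes with a value on every array. Signals below are the scanner's processed intensities after all arrays were brought to the same 75th percentile. Each difference is OVA minus PBS on the log2 scale, so that 1 is 2-fold, and is followed by a technical standard error. That error comes from the scanner's error model, which assigns each spot an error of about 10% of its signal, so variation from mouse to mouse or array to array is not in it. The words higher and lower, used as a call, stand for 2-fold or more. Where a probe was not well above background on 1 of the 2 arrays, only a bound is given, as "at least N-fold". Signals of different probes are not comparable with each other.

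The lavage of a resting mouse peritoneum holds mainly large peritoneal macrophages and B cells, with fewer T cells, dendritic cells, mast cells and eosinophils. Macrophages and mast cells there sense injury and microbial products through Toll-like and cytosolic receptors. Their signalling through NF-kB induces cytokines and chemokines that draw in neutrophils and monocytes from the blood, while type I interferons induce a set of antiviral genes through STAT and IRF factors. Ovalbumin, the main protein of egg white, is a model antigen that is usually given with an adjuvant because alone it raises weak antibody responses.

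Labels and position on the slide were checked first. Xist, the transcript of the inactive X chromosome, was well above background on both arrays, at 111 with PBS and 104 with OVA. The pan-leukocyte gene Ptprc was at 3370.3 with PBS and 6161 with OVA, and the peritoneal macrophage factor gene Gata6 at 1831 with PBS and 1553 with OVA. All 5 arrays lay on 1 slide and were scanned once. The PBS array lay alone in row 1, so slide row and OVA cannot be told apart. Column 4 held the PBS array and that of OVA+Alum. Relative to every array outside this column, both were low by 2-fold or more for 163 genes and high by as much for 15. These 163 genes are called the slide column pattern, after the position of the arrays. All of them are higher with OVA than with PBS by construction, and each is marked where it is named.

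The promoters of 3 genes that were higher with OVA are shown because interferon-induced genes were one of the groups with most calls. They come from RefSeq on the mouse assembly GRCm38.p6, run 5′ to 3′ along the gene from 250 bases before to 50 bases after its start, and capitals mark motif matches. Motifs were searched on both strands. The interferon-stimulated response element was taken as GAAA, any 2 bases and GAAA, the NF-kB site as GGGA, any base and TTTCC, and the AP-1 site as TGANTCA.
Ifit1 (chr19:34640639-34640938, plus strand): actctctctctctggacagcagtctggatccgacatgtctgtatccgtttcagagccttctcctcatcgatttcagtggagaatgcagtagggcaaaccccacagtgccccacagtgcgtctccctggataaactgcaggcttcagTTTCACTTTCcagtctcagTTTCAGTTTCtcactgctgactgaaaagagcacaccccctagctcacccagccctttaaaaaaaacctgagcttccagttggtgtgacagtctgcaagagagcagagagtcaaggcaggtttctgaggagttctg
Isg15 (chr4:156200769-156201068, minus strand): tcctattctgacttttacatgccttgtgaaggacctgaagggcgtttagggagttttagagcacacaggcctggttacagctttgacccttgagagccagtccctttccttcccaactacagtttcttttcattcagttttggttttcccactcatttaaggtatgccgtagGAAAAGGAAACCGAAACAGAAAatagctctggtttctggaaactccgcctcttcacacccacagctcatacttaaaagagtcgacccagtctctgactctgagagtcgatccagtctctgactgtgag
Cxcl10 (chr5:92348840-92349139, minus strand): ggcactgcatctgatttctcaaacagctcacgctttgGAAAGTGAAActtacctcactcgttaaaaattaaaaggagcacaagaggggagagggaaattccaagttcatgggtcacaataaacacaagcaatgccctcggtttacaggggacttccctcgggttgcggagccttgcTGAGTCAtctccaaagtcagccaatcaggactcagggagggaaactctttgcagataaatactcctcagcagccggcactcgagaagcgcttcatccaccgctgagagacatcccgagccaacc
The Ifit1 promoter had 2 matches to the response element and that of Isg15 had 3, which overlap. The Cxcl10 promoter had 1 match to the response element and 1 to the AP-1 motif. For shares over genes, a gene counted if any of its promoters held a match. The response element was matched for 3.99% of all 27025 genes with a promoter and for 3.85% of the 11999 measured ones. It was matched for 7.28% of 797 genes higher with OVA and for 3.81% of 472 genes lower with OVA. Of 63 genes in the interferon lists described below, which were written down as interferon-induced genes, 50.8% held it. The 58 higher genes with a match include 14 from those lists, out of 24 listed higher genes with a promoter (58.3%). The AP-1 motif was matched for 11.3% of higher genes, 9.53% of lower genes and 7.03% of measured genes. The NF-kB motif in these exact letters was rare, at 0.376% of higher genes and 0.592% of measured genes. Other spellings of the site were not searched, so a promoter without a match, such as that of Cxcl10, may still hold one. These are matches of letters, not known binding sites.

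Most genes lay close together on the 2 arrays. Of the measured genes, 73.2% differed by less than 1.5-fold, and the middle 50% of differences ran from -0.41 to 0.21, around a median of -0.14. At least 2-fold higher with OVA were 1003 genes (6.67% of those measured) and at least 2-fold lower were 614 (4.08%). Higher genes thus made up 1003 of 1617 calls (10.8% of genes in either direction). As a share of calls, higher genes were 72.6% with arrays scaled to their medians, 81.7% with spike-in scaling, 80.1% after normexp background correction and quantile normalization, and 51.3% with no filter on dim probes. Median and spike-in scaling moved every difference up by 0.12 and 0.26. At least 4-fold higher were 233 genes and lower 123, and at least 16-fold higher 49 and lower 11. Many genes lay near the threshold: 283 were higher by 1.0 to 1.2 on the log2 scale, which is about the median technical error above it, and 391 by 0.8 to 1.0. On the lower side these numbers were 222 and 405.

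**Figure D1:**
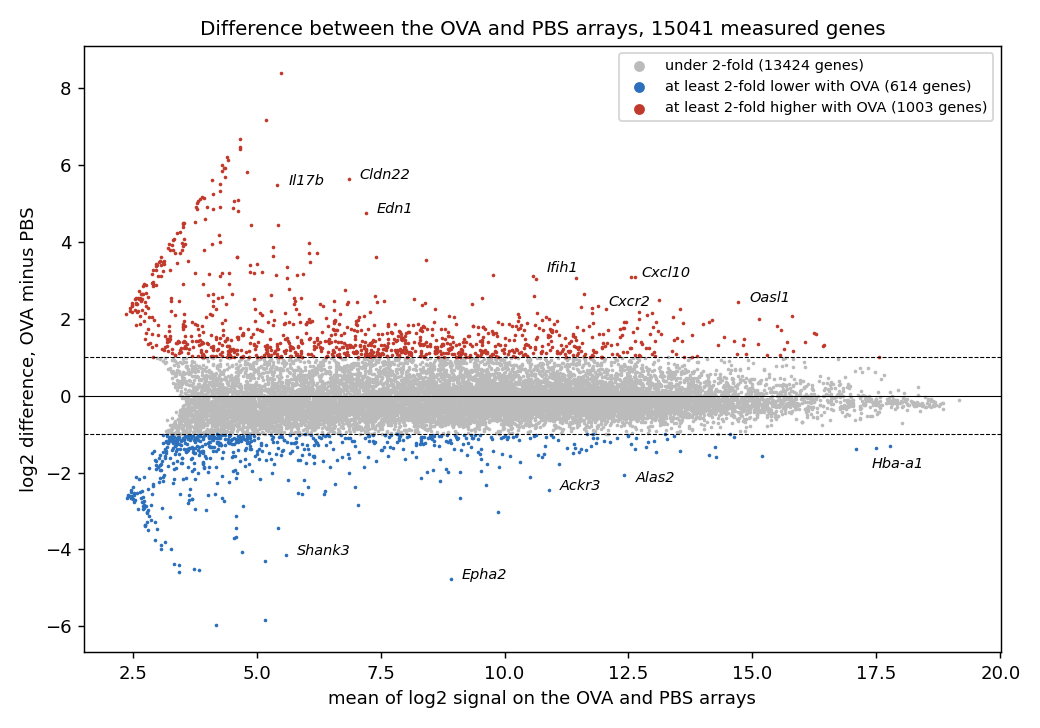
Each point is 1 of 15041 measured genes, placed by the mean of its log2 signal on the OVA and PBS arrays (x axis) and its log2 difference, OVA minus PBS (y axis), at the measured values even where only a bound applies. Dashed lines mark 2-fold, red points are the 1003 higher and blue points the 614 lower genes, and the widest differences lie among the dimmest genes.

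The share of genes called differed with brightness in both directions. In the dimmest quintile of genes, 12.1% were higher and 12.6% lower, and in the brightest 2.69% and 0.831%. In the 4 brighter quintiles, higher calls outnumbered lower ones, with 8.41%, 5.88%, 4.29% and 2.69% against 3.26%, 2.56%, 1.13% and 0.831%. Among the 14134 genes well above background on both arrays, 734 were higher (5.19%) and 347 lower (2.46%). A further 269 higher genes were above background with OVA only. A bound could be given for 258 of them, and it was at least 2-fold for 142. Of the 267 lower genes above background with PBS only, the bound was at least 2-fold for 109. For 98.2% of the measured genes the probe had 1 spot on the array. Over all 34730 measured probes, with or without a gene symbol, 6.75% were higher and 5.2% lower.

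**Figure D2:**
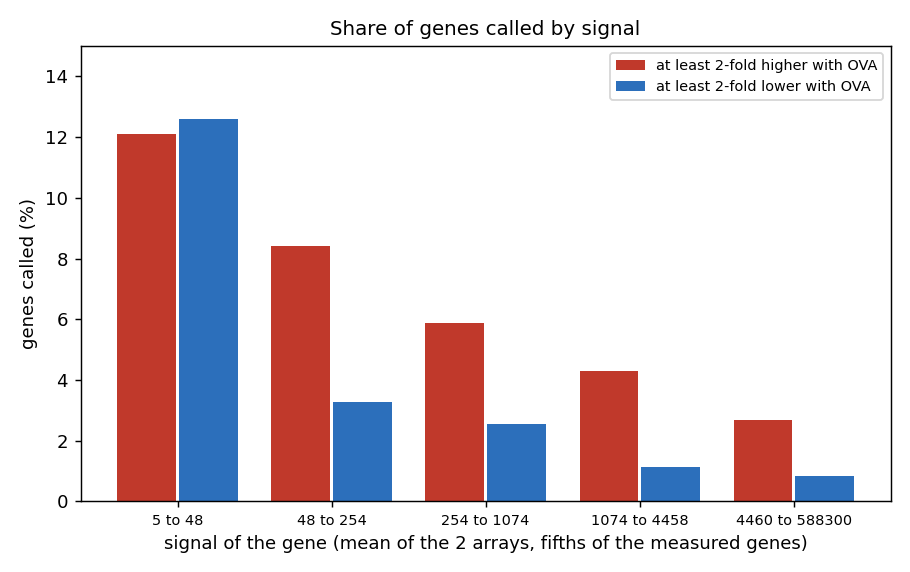
The bars give the percentage of measured genes called higher (red) or lower (blue) with OVA, in quintiles of the genes by their mean signal on the 2 arrays, dimmest on the left. The share called higher goes from 12.1% to 2.69% and the share called lower from 12.6% to 0.831%.

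For the account by function, 79 gene lists were used, holding 1631 measured genes, of which 213 were higher and 59 lower. The count in each list stands against 6.67% higher and 4.08% lower over all genes. The lists with the highest medians were Cxcl9, Cxcl10 and Cxcr3 (median 1.52 over 3 genes), the interleukin 1 family (1.30 over 15), neutrophil granule genes (1.20 over 26) and interferon-induced GTPases (1.04 over 17), against -0.14 over all genes. The lists with the lowest medians were red cell genes (-0.56 over 22), scavenger receptors (-0.53 over 15), cell cycle genes (-0.41 over 48) and prostaglandin and leukotriene synthesis (-0.39 over 28). The lists of ribosomal proteins (69 genes), oxidative phosphorylation (57), MHC class I (27) and MHC class II (16) had no member that differed 2-fold.

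**Figure D3:**
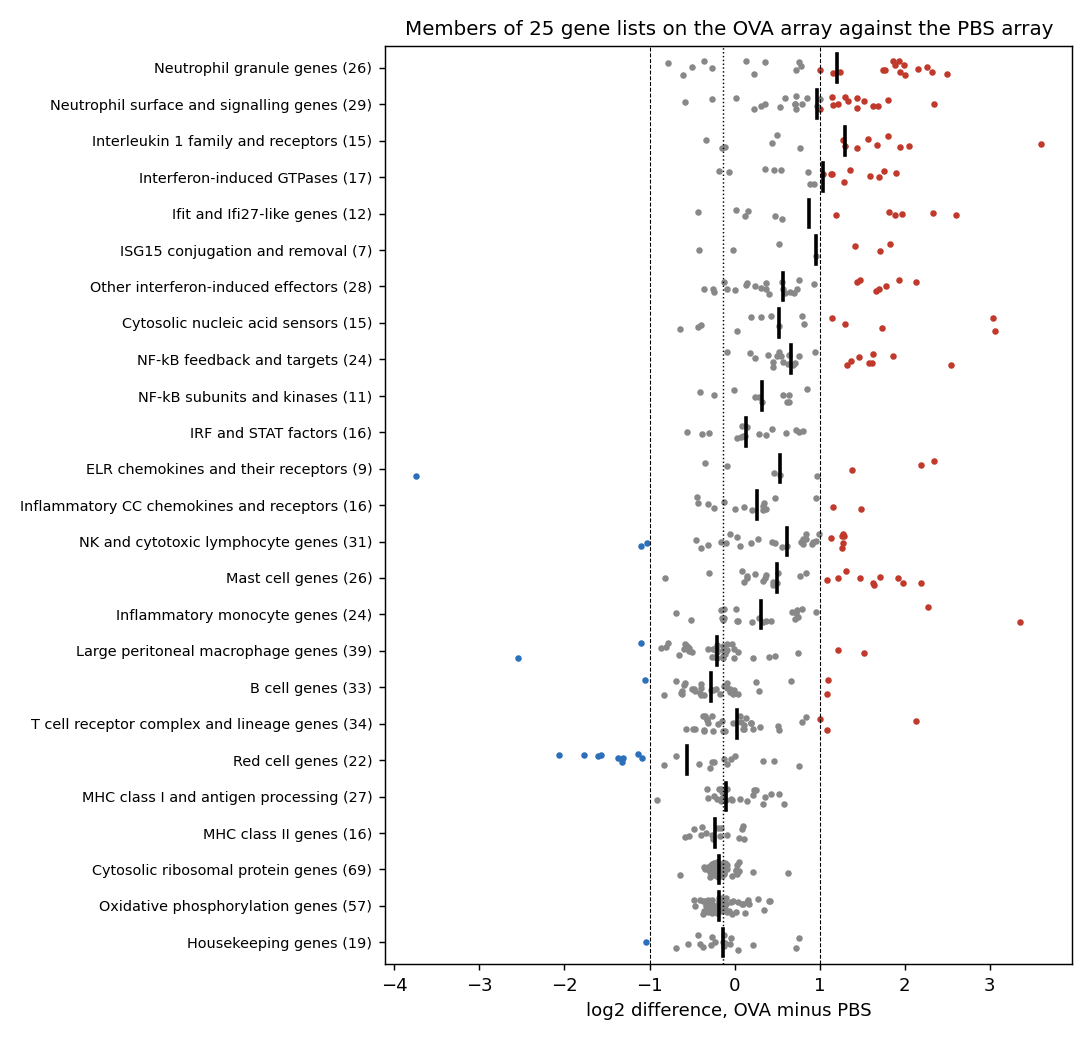
Each point is 1 measured member of a list, placed by its log2 difference, OVA minus PBS, with red for at least 2-fold higher and blue for at least 2-fold lower. Black bars are list medians, the dotted line is the median of all genes (-0.14), and the number of measured members stands after each name. Points of neutrophil, interleukin 1 and interferon lists reach well to the right, red cell genes to the left, and ribosomal and MHC genes stay between the dashed 2-fold lines.

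Among the lists of sensors, that of cytosolic nucleic acid sensors had the largest share of higher members, in part through the slide column pattern. Of 15 cytosolic nucleic acid sensors, 5 were higher and none lower, with a median of 0.52. Ifih1, which encodes the RNA sensor MDA5, had a signal of 554 with PBS and 4538 with OVA, a difference of 3.03 ± 0.20. It was higher still on the AEPS array (9431) and, with OVA+Alum (2292), lay between PBS and OVA. Ifi204, a DNA-binding protein gene of the same interferon-inducible group, was at 3826 with PBS and 8444 with OVA (1.14 ± 0.20). Ifi211 (3.06 ± 0.20), Ifi209 (1.74 ± 0.20) and the RNA-activated kinase gene Eif2ak2 (1.30 ± 0.20) were also higher, but these 3 belong to the slide column pattern. Without that pattern, 2 of 12 sensors were higher, with a median of 0.37, and 2 of 12 Toll-like receptors, with a median of 0.13. The RIG-I gene Ddx58 differed by 0.19 ± 0.20 and the DNA sensor gene Cgas by 0.79 ± 0.20, both under 2-fold.

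Of 12 Toll-like receptors, 2 were higher and none lower, with a median of 0.13. Tlr7, the endosomal receptor for single-stranded RNA, was at 789 with PBS and 1838 with OVA (1.22 ± 0.20). The other was the flagellin receptor gene Tlr5, which was above background with OVA only, at least 1.59-fold higher. Tlr4, the lipopolysaccharide receptor gene, was at 851 with PBS and 1494 with OVA, a difference of 0.81 ± 0.20. Its coreceptor genes Cd14 (0.43 ± 0.20) and Ly96 (1.51 ± 0.20) and the class B scavenger receptor gene Cd36 (1.53 ± 0.20) differed unequally, and the last 2, the only 2-fold calls among 18 coreceptors and adaptors, belong to the slide column pattern. Myd88, the adaptor gene of most Toll-like receptors, differed by 0.66 ± 0.20, and Tlr2 by 0.03 ± 0.20.

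Calls among other surface receptors went both ways. Of 17 C-type lectin receptor genes, 3 were higher and 1 lower, and 1 of 15 was higher without the slide column pattern. Clec9a, a receptor of cross-presenting dendritic cells, was higher, at 93.5 with PBS and 200.2 with OVA, and Clec4e, the Mincle gene, at 38375 with PBS and 86126 with OVA (1.17 ± 0.20, slide column pattern). Clec4a2, an inhibitory receptor gene, was lower, at -1.40 ± 0.30. Of 14 Fc receptor genes, 2 were higher and 1 lower. Fcgr1, the high-affinity IgG receptor gene, went from 1292 with PBS to 415 with OVA (-1.64 ± 0.20). Fcgr1 was also below its PBS signal on the other 3 arrays, which lay between 328 and 977. Of 15 scavenger receptor genes, Olr1, a receptor for oxidized lipoprotein, was at 517 with PBS and 1598 with OVA (1.63 ± 0.20), while Marco, which binds bacteria, was at 8367 with PBS and 4772 with OVA (-0.81 ± 0.20, under 2-fold).

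Among inflammasome, caspase and gasdermin genes, 5 of 22 were higher and none lower. Il1b, the main product, had 55784 with PBS and 137597 with OVA (1.30 ± 0.20). Mefv, which encodes pyrin, was at 4471 with PBS and 13743 with OVA (1.62 ± 0.20), and Gsdme, a pore-forming gasdermin gene, at 684 with PBS and 2264 with OVA (1.73 ± 0.20). Casp4 (2.11 ± 0.20), which senses cytosolic lipopolysaccharide, and Casp1 (1.13 ± 0.20) were higher as part of the slide column pattern, without which 3 of 20 were higher. The core sensor gene Nlrp3 was at 456 with PBS and 406 with OVA and Gsdmd at 6147 with PBS and 6177 with OVA, so neither differed 2-fold. Pycard, the adaptor gene of these complexes, was at 24453 with PBS and 13980.3 with OVA, a difference of -0.81 ± 0.20.

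None of 11 NF-kB subunits and kinases differed 2-fold, with a median of 0.33 and 8 of 11 above 0. These include Nfkb1 at 0.64 ± 0.20, Relb at 0.63 ± 0.20 and Rela at 0.33 ± 0.20. Of 24 feedback and target genes, 8 were higher and none lower, with a median of 0.66, and 23 of 24 had a difference above 0. Tnfaip3, which encodes the deubiquitinase A20, went from 12874 to 32159 (1.32 ± 0.20). Zc3h12a, whose product degrades cytokine mRNA, was at 1272 with PBS and 3792 with OVA (1.58 ± 0.20), and the stress gene Gadd45b at 6562 with PBS and 18073 with OVA (1.46 ± 0.20). Tnip3 (2.54 ± 0.20), Birc2 (1.86 ± 0.20), Bcl2a1d (1.62 ± 0.20) and Cflar (1.37 ± 0.20) were the 4 members of the slide column pattern, without which 4 of 20 were higher, with a median of 0.60. Further probes of Cflar gave 0.80 and 0.49. Nfkbia, the gene of the inhibitor IkBα, differed by 0.63 ± 0.20, under 2-fold. On the AEPS array the median of the feedback list stood 1.21 above PBS, and on the OVA+Alum array 0.56.

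Of 16 AP-1 factors, none was higher and 2 were lower, among them Fosl1 at 328 with PBS and 131 with OVA (-1.32 ± 0.21). Fos itself was at 4916 with PBS and 5033 with OVA and Jun at 22091 with PBS and 13691 with OVA, with differences of 0.03 ± 0.20 and -0.69 ± 0.20. Of 19 EGR, NR4A and KLF genes, Klf4 was lower, from 1813 to 498 (-1.86 ± 0.20), as was Nr4a2 (-1.03 ± 0.21), of which a further probe gave -0.54. Egr1 differed by 0.33 ± 0.20. Among 19 inducible brakes, 2 were higher. Dusp16, a phosphatase gene for MAP kinases, was at 2396 with PBS and 5005 with OVA (1.06 ± 0.20), and Il1rn, the interleukin 1 receptor antagonist gene, at 1119.7 with PBS and 3315 with OVA (1.57 ± 0.20). Socs3 (0.74 ± 0.20) and Socs1 (0.51 ± 0.20), which encode brakes on JAK signalling, were under 2-fold. None of 16 IRF and STAT factor genes differed 2-fold, with Stat2 at 0.75 ± 0.20 and Irf7 at 0.28 ± 0.20.

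Of 13 interferons and interferon receptors, 5 were higher and none lower, with a median of 0.27. Without the slide column pattern 3 of 11 were higher, with a median of 0.12, and after normexp with quantile normalization 2 of 13. Ifnb1, the interferon β gene, was above background with OVA (40.9) and not with PBS (10.4), at least 3.38-fold higher, and it belongs to the slide column pattern. Ifna4 was at 28.9 with OVA and not above background with PBS, at least 2.39-fold higher. Its signal on the other 3 arrays was between 2.22 and 2.95. Ifng, the interferon γ gene, was at 345 with PBS and 734 with OVA (1.09 ± 0.20), and Ifnlr1, a receptor gene of type III interferon, at 149.9 with PBS and 536 with OVA (1.84 ± 0.21). The receptor genes Ifnar1 (0.29 ± 0.20) and Ifngr1 (0.10 ± 0.20) were under 2-fold. Jak2, the kinase gene of several cytokine receptors, was at 1657 with PBS and 7383 with OVA (2.16 ± 0.20, slide column pattern).

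Interferon-induced genes as a group stood higher with OVA, at a fraction of the level on the AEPS arrays. Over 6 lists together, 29 of 80 genes were higher (36.2%) and none lower, against 6.67% and 4.08% over all genes. The median was 0.70, and 5 of the 29 belong to the slide column pattern. For 66 of the 80, the OVA signal lay above the PBS signal and below both AEPS arrays. The median of the 80 stood above PBS by 0.70 with OVA, 0.48 with OVA+Alum, 2.09 with AEPS and 2.02 with OVA+AEPS. These 4 values share the PBS array. PBS was the lowest of the 5 arrays for 60 of the 80 genes, and OVA was the highest for none. These orders were not counted over all measured genes. Among 19 housekeeping genes, PBS was lowest for 0 and highest for 10, and OVA lay above PBS and below both AEPS arrays for 2. Of 14 Parp genes, counted apart, 2 were higher and none lower, with a median of -0.02.

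The members of these lists can be followed by their roles. Ifit1, whose product binds viral RNA caps, had a signal of 627 with PBS, 3809.7 with OVA, 1917 with OVA+Alum, 39496 with AEPS and 27593 with OVA+AEPS, a difference between OVA and PBS of 2.60 ± 0.20. Its neighbours Ifit3 (1.88 ± 0.20) and Ifit3b (1.81 ± 0.20) were higher too, as was Ifit2 (2.33 ± 0.23, slide column pattern), with 6 of 12 genes in that list. Without the slide column pattern it was 4 of 10, with a median of 0.51. Oasl1, a regulator of Irf7 translation, was at 11511 with PBS, 62665 with OVA, 50816 with OVA+Alum, 157533 with AEPS and 157828 with OVA+AEPS (2.44 ± 0.20). The RNase L activating genes of the same family differed less, with Oas3 at 1.03 ± 0.20, Oas2 at 0.69 ± 0.20 and Oas1a at 0.10 ± 0.20. In the ISG15 pathway, which conjugates a ubiquitin-like protein, Isg15 itself was at 24583 with PBS and 86951 with OVA (1.82 ± 0.20). The ligase gene Herc6 (1.71 ± 0.21) and the deconjugating protease gene Usp18 (1.42 ± 0.20) were higher, but the conjugating enzyme gene Ube2l6 was at -0.42 ± 0.20.

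GTPases that attack intracellular pathogens had 9 of 17 members higher and none lower. Irgm1 was at 3094 with PBS and 7917 with OVA (1.36 ± 0.20), Gbp5 at 3053 with PBS and 9164 with OVA (1.59 ± 0.20) and Tgtp2 at 2791 with PBS and 9396 with OVA (1.75 ± 0.20). Gbp7 (1.70 ± 0.21) and Gvin1 (1.89 ± 0.20) were the 2 of the slide column pattern. A further probe of Tgtp2 gave 0.37. Iigp1 (0.36 ± 0.20) and Gbp2 (0.55 ± 0.20) were under 2-fold, but a further probe of Iigp1 was above background with OVA only. Of 7 Schlafen genes, 3 were higher and all 7 had a difference above 0, with Slfn4 at 481 with PBS and 1544 with OVA (1.68 ± 0.20) and Slfn8 at 899 with PBS and 3074 with OVA (1.77 ± 0.20). Among 28 other effectors, 7 were higher. They include Rsad2, the viperin gene, at 1105 with PBS and 3595 with OVA (1.70 ± 0.20), its neighbour Cmpk2 (1.47 ± 0.20) and Rtp4 (1.44 ± 0.20). A further probe of Cmpk2 gave 0.99. Ifitm1, a membrane restriction factor gene, was at 3487 with PBS, 11023 with OVA, 17701 with OVA+Alum, 8652 with AEPS and 6684 with OVA+AEPS (1.66 ± 0.20), so that, unlike Ifit1, it was highest on the OVA+Alum array. Bst2 (0.24 ± 0.20) and Ifitm3 (-0.08 ± 0.20) were close on the 2 arrays.

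**Figure D4:**
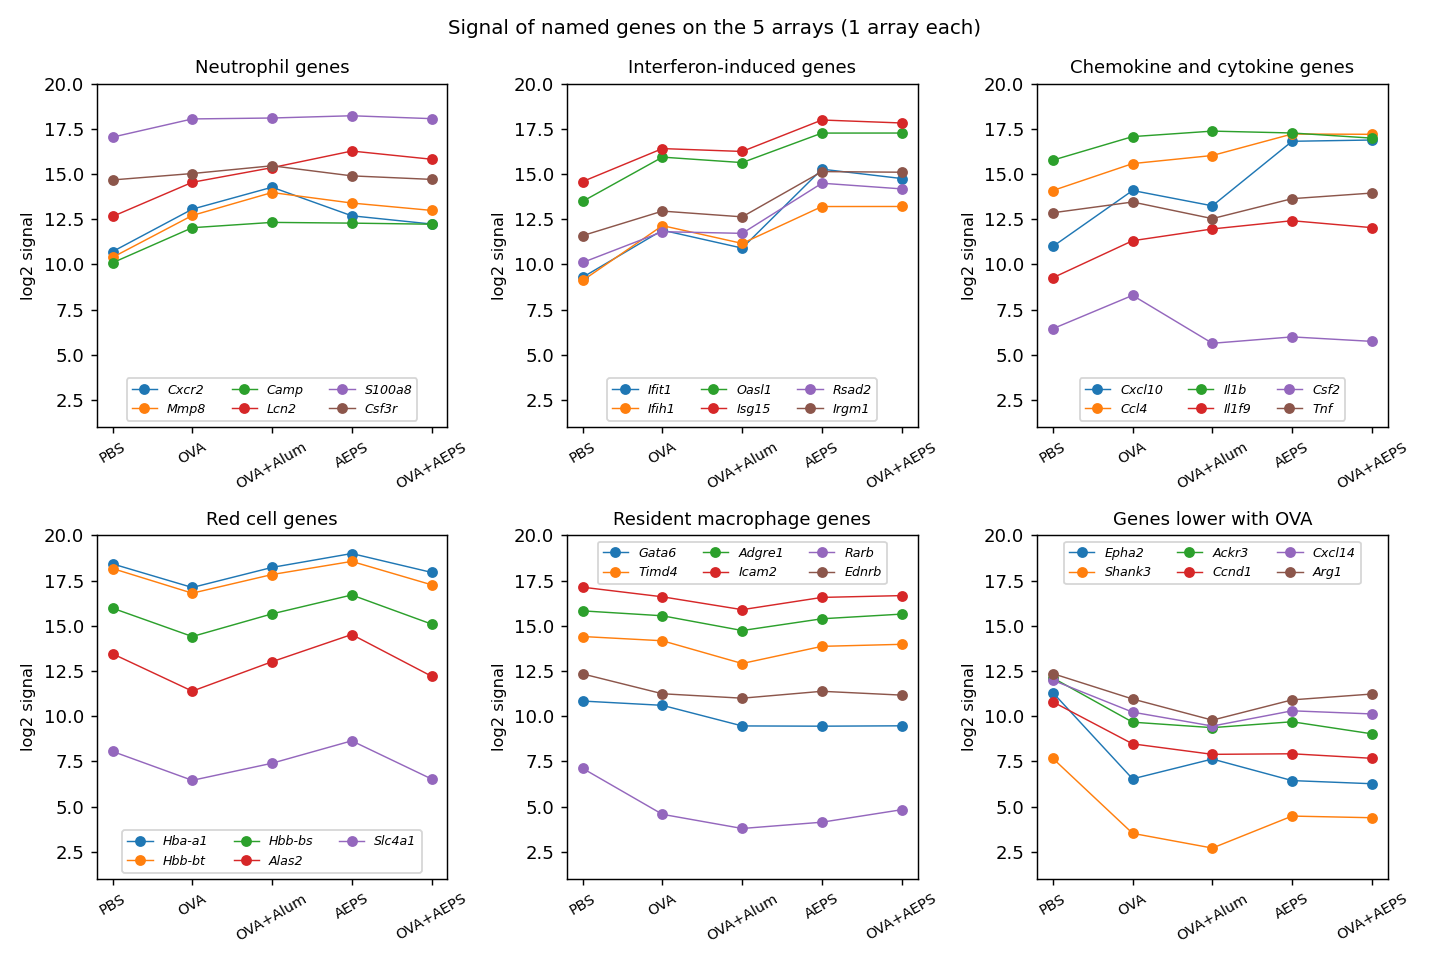
Each point is the log2 signal (y axis) of a gene on 1 of the 5 arrays (x axis), and the lines only join points of the same gene. Of the genes plotted, neutrophil and interferon genes are lowest on the PBS array, and red cell genes are lowest on the OVA array and highest on the AEPS array. Ifit1, Isg15 and Cxcl10 are higher on both AEPS arrays than on the OVA array. Heights of different genes are not comparable.

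Chemokine genes followed several orders across the arrays. Cxcl10, which attracts T and NK cells and is induced by interferon, had a signal of 2040.2 with PBS, 17445 with OVA, 9688 with OVA+Alum, 115047 with AEPS and 120799.7 with OVA+AEPS. Its difference of 3.10 ± 0.20 was among the 15 largest of higher genes above background on both arrays. Cxcl9 was higher as well, at 184 with PBS and 528 with OVA (1.52 ± 0.21), while their receptor gene Cxcr3 was at -0.20 ± 0.20. Among 9 neutrophil-attracting ELR chemokines and their receptors, 3 were higher and 1 lower. The receptor gene Cxcr2, carried by neutrophils, went from 1674 to 8525 (2.35 ± 0.20), and Cxcr1 from 192 to 498 (1.38 ± 0.20). The ligand gene Cxcl5 was at 72.8 with PBS and 333 with OVA (2.19 ± 0.21). The ligand genes Cxcl1 (0.97 ± 0.20), Cxcl2 (0.54 ± 0.20) and Cxcl3 (0.46 ± 0.20) were under 2-fold with OVA. The 1 lower gene was Cxcl15, above background with PBS only, at least 2.67-fold lower.

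Of 16 inflammatory CC chemokines and receptors, 2 were higher. Ccl4, a chemokine gene of macrophages, was at 17408 with PBS and 48902 with OVA (1.49 ± 0.20), and the monocyte and neutrophil receptor gene Ccr1 at 213 with PBS and 474 with OVA (1.16 ± 0.20). Ccl3 (0.37 ± 0.20) and the monocyte attractant gene Ccl2 (0.33 ± 0.20) were under 2-fold. Among 24 homeostatic chemokines and receptors, 3 were higher and 3 lower. Ccl22, a ligand of CCR4 on regulatory and helper T cells, was at 18.3 with PBS and 84.2 with OVA (2.20 ± 0.29), and Ccl17, the other CCR4 ligand, at 2378 with PBS and 4805 with OVA (1.02 ± 0.20). The atypical receptor gene Ackr3, which removes CXCL12, was lower, from 4446 to 815 (-2.45 ± 0.20), as were Cxcl14 (-1.77 ± 0.20) and the fractalkine receptor gene Cx3cr1 (-1.24 ± 0.20). All 3 were also below PBS on each of the other arrays, Ackr3 with signals between 521 and 828.

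Receptors for lipid and peptide attractants were split evenly, with 3 of 21 higher and 3 lower. C5ar2 (1.19 ± 0.20), the platelet-activating factor receptor gene Ptafr (1.13 ± 0.20) and the formyl peptide receptor gene Fpr2 (1.08 ± 0.20, slide column pattern) were higher. C3ar1, the receptor gene for C3a, was lower, at 1663 with PBS and 582 with OVA (-1.52 ± 0.20), as was the chemerin receptor gene Cmklr1, at 234 with PBS and 57.8 with OVA (-2.01 ± 0.21). The leukotriene B4 receptor genes were at 0.31 ± 0.20 for Ltb4r1 and -1.23 ± 0.23 for Ltb4r2, the latter the third lower member.

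The interleukin 1 family had the largest share of calls among cytokine lists, with 9 of 15 higher and none lower. Il1b was at 55784 with PBS, 137597 with OVA, 169871 with OVA+Alum, 158122 with AEPS and 129831 with OVA+AEPS. Its signal was lowest with PBS, and the 4 other arrays spanned 129831 to 169871. Il1a, the membrane-bound form, was at 409 with PBS and 1422 with OVA (1.80 ± 0.20, slide column pattern), and Il1f9, the interleukin 36γ gene, at 615 with PBS and 2544 with OVA (2.05 ± 0.20). The decoy receptor gene Il1r2, which neutrophils carry, was at 3837 with PBS and 10373 with OVA (1.43 ± 0.20), and the receptor subunit gene Il1rap at 48.6 with PBS and 188 with OVA (1.95 ± 0.22). Il33, an alarmin gene of stromal cells, was above background with OVA (84.7) and not with PBS (6.96), at least 7.01-fold higher.

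Other cytokine families had fewer calls. Il6 had a signal of 7098 with PBS, 6663 with OVA, 1685 with OVA+Alum, 19752 with AEPS and 17337 with OVA+AEPS, so OVA and PBS were alike within the technical error (-0.09 ± 0.20). Il10 (-0.49 ± 0.20) and Il12a (0.14 ± 0.22) were also under 2-fold. Of 18 common gamma chain cytokines and receptors, 4 were higher and none lower. Il15, which supports NK and memory T cells, was at 74.5 with PBS and 403 with OVA (2.43 ± 0.21), and Il13ra1 at 46.4 with PBS and 164 with OVA (1.82 ± 0.22). Il13 was higher, at 40.1 with PBS and 113 with OVA, while Il4 was at 394 with PBS and 734 with OVA (0.90 ± 0.20, under 2-fold). Csf2, the gene of the growth factor GM-CSF, was at 87.2 with PBS, 313 with OVA, 49.9 with OVA+Alum, 63.7 with AEPS and 53.7 with OVA+AEPS (1.85 ± 0.21), highest with OVA and below PBS on the other 3 arrays. Csf3 was not higher, at 1040.4 with PBS and 669.7 with OVA (-0.64 ± 0.20). Il17b was at 287 with OVA, not above background with PBS, and between 2.76 and 6.75 on the other 3 arrays, so that it was at least 23.7-fold higher on the OVA array.

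Of 36 TNF superfamily ligands and receptors, 6 were higher and none lower. Fas, the death receptor gene, was at 2042 with PBS and 5943 with OVA (1.54 ± 0.20), Tnfrsf1b, the second TNF receptor, at 1727 with PBS and 4262 with OVA (1.30 ± 0.20), and Tnfsf9, the ligand of 4-1BB, at 1158 with PBS and 2512 with OVA (1.12 ± 0.20). Tnf was at 7428 with PBS and 11219 with OVA, a difference of 0.59 ± 0.20. TGF beta, BMP and activin genes were the cytokine list with most lower members, 6 of 31 against 4 higher. Inhba, the activin A subunit, was higher, at 60.9 with PBS and 212 with OVA (1.80 ± 0.21), and Bmp2 was lower, at 302 with PBS and 119 with OVA (-1.34 ± 0.21). Bmp6 (-1.38 ± 0.28) and Gdf15 (-1.45 ± 0.27) were lower too, and 3 of the 6 lower members were above background with PBS only. Among 32 growth factor and endothelin genes was Edn1, the vasoconstrictor endothelin 1, at 28.4 with PBS, 765 with OVA, 204 with OVA+Alum, 1746 with AEPS and 2529 with OVA+AEPS (4.75 ± 0.24, slide column pattern). Of the higher genes above background on both arrays, Edn1 had the second largest difference. Its receptor gene Ednrb was lower, at 5181 with PBS and 2421 with OVA (-1.10 ± 0.20).

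Neutrophil genes were higher with OVA on a broad front. Of 26 granule genes, 15 were higher (57.7%) and none lower, with a median of 1.20. Of 29 surface and signalling genes, 13 were higher and none lower, with a median of 0.97. Mmp8, the neutrophil collagenase, was at 1344 with PBS, 6693 with OVA, 16134 with OVA+Alum, 10786 with AEPS and 8131 with OVA+AEPS (2.32 ± 0.20). Camp, the cathelicidin gene, was at 1091 with PBS, 4189 with OVA, 5136 with OVA+Alum, 4993 with AEPS and 4791 with OVA+AEPS (1.94 ± 0.20), and a further probe of it gave 1.80. Ltf, the lactoferrin gene, was at 685 with PBS and 2329 with OVA (1.77 ± 0.20) and Ngp at 426 with PBS and 1425 with OVA (1.74 ± 0.20). S100a8, the abundant calprotectin subunit, was at 134852 with PBS and 270899 with OVA (1.01 ± 0.20), and Lcn2, which traps bacterial iron carriers, at 6444 with PBS and 23887 with OVA (1.89 ± 0.20). All 6 of these genes had their lowest signal on the PBS array. Over the 26 granule genes, PBS was the lowest of the 5 arrays for 16 and the highest for 5.

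The protease inhibitor genes Stfa1 (2.00 ± 0.20), Stfa2 (2.49 ± 0.20) and Stfa2l1 (2.26 ± 0.20) are near-identical copies whose probes may share signal. Among surface genes, Mrgpra2a was at 4354 with PBS and 15176 with OVA (1.80 ± 0.20) and Cd177 at 152 with PBS and 336 with OVA (1.15 ± 0.21), while Csf3r, the receptor for G-CSF, was at 26136 with PBS and 33423 with OVA, under 2-fold (0.35 ± 0.20). Over both lists together, 26 of 53 genes were higher (49.1%), against 6.67% over all genes. PBS was the lowest of the 5 arrays for 35 of the 53 and the highest for 6, orders not counted over all genes. The median of the 53 stood above PBS by 0.999 with OVA, 1.61 with OVA+Alum, 1.36 with AEPS and 1.07 with OVA+AEPS, values that share the PBS array. In a mixture of cells, more cells of a type and more RNA per cell cannot be told apart. Only 1 of the 26 higher neutrophil genes belongs to the slide column pattern, the granule gene Anxa1 (1.93 ± 0.20).

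Of other leukocyte lists, mast cell genes had 10 of 26 members higher and none lower, with a median of 0.50. The surface and granule genes were unequal. Cpa3, the mast cell carboxypeptidase, was at 3138 with PBS and 14333 with OVA (2.19 ± 0.20) and Fcer1a, a subunit of the IgE receptor, at 466 with PBS and 1438 with OVA (1.63 ± 0.20), both in the slide column pattern. Mitf, a factor gene of mast cells and macrophages, was at 2869.9 with PBS and 10894 with OVA (1.92 ± 0.20), and Hdc, which makes histamine in mast cells and is also active in neutrophils, at 33684 with PBS and 78012 with OVA (1.21 ± 0.20). The lineage receptor gene Kit (0.14 ± 0.20) and the protease gene Mcpt4 (0.11 ± 0.20) were close on the 2 arrays. Without the slide column pattern, 6 of 22 genes were higher, with a median of 0.45.

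NK and cytotoxic lymphocyte genes had 6 of 31 members higher and 2 lower, with a median of 0.61. The higher ones include the Ly49 receptor genes Klra8 (544 with PBS and 1191 with OVA, 1.13 ± 0.20) and Klra9 (373 with PBS and 908 with OVA, 1.28 ± 0.20), and the interleukin 18 receptor subunit Il18rap (1.27 ± 0.21). The granzyme genes Gzma (0.78 ± 0.20) and Gzmb (0.80 ± 0.20) were under 2-fold, and Gzmk was lower (-1.10 ± 0.20). The Klra genes are close copies, and their probes may share signal. Eosinophil ribonuclease genes leaned the same way, with Ear2 at 1494 with PBS and 3253 with OVA (1.12 ± 0.20) and Ear1 at 0.98 ± 0.20, but the eosinophil receptor gene Ccr3 differed by 0.11 ± 0.20. Of 24 inflammatory monocyte genes 2 were higher, Gpr141 (15.2 with PBS and 156 with OVA, 3.35 ± 0.32) and Vcan (2.27 ± 0.21, slide column pattern), of which a further probe gave 0.42. The monocyte receptor gene Ccr2 was at 608 with PBS and 1182 with OVA (0.96 ± 0.20), just under 2-fold.

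As a list, genes of resident macrophages differed little. Of 39 large peritoneal macrophage genes, 2 were higher and 2 lower, and the median of -0.20 lay 0.06 from that of all genes. Timd4, a receptor for dying cells, was at 21722 with PBS, 18465 with OVA, 7721 with OVA+Alum, 14905 with AEPS and 16105 with OVA+AEPS, lowest with OVA+Alum. Gata6 (-0.24 ± 0.20), Adgre1 (-0.27 ± 0.20) and Icam2 (-0.53 ± 0.20) were under 2-fold. The 2 lower genes were Ednrb and Rarb, a retinoic acid receptor gene upstream of Gata6, at 139 with PBS and 23.8 with OVA (-2.54 ± 0.24), and a further probe of Rarb gave -1.71. Icosl, the ligand of the T cell receptor ICOS, was higher, at 6795 with PBS, 19429 with OVA, 6511 with OVA+Alum, 9065 with AEPS and 11464 with OVA+AEPS (1.52 ± 0.20).

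Of 33 B cell genes 2 were higher (6.06%) and 1 lower (3.03%), with Ms4a1, the CD20 gene, at 47323 with PBS and 57639 with OVA (0.28 ± 0.20). Of 34 T cell genes 3 were higher (8.82%) and none lower, with Cd3e at 8805 with PBS and 6873 with OVA (-0.36 ± 0.20) and Cd4 at -0.37 ± 0.20. The 3 were Ctla4 (1.09 ± 0.22), Rora (1.01 ± 0.25) and Trat1, the last above background with OVA only. For mesothelial, stromal, endothelial, adipocyte and platelet lists, the share of higher members ran from 5.56% to 11.8% and that of lower members from 0% to 5.88%, against 6.67% and 4.08% over all genes. The mesothelial gene Msln was at 348 with PBS, 413 with OVA, 1009 with OVA+Alum, 696 with AEPS and 549.9 with OVA+AEPS and the collagen gene Col1a1 at 235 with PBS, 272 with OVA, 828 with OVA+Alum, 419 with AEPS and 449 with OVA+AEPS, so that both were nearly as low with OVA as with PBS. Acta2, the smooth muscle actin gene, was higher (1.38 ± 0.20) and Tagln, another smooth muscle gene, was lower (-1.48 ± 0.20).

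Red cell genes were the one cell list with many lower members. Of 22 measured, 9 were lower (40.9%) and none higher, with a median of -0.56. The globin gene Hba-a1 had a signal of 351779 with PBS, 142296 with OVA, 307004 with OVA+Alum, 523196 with AEPS and 253782 with OVA+AEPS, a difference of -1.31 ± 0.20. Alas2, the erythroid enzyme that starts haem synthesis, was at 11219 with PBS, 2677 with OVA, 8268 with OVA+Alum, 23464 with AEPS and 4748 with OVA+AEPS (-2.07 ± 0.20). Slc4a1, the band 3 anion exchanger, was at 266 with PBS and 87.6 with OVA (-1.60 ± 0.21). All 3 of these genes were lowest with OVA and highest with AEPS, with PBS in between.

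Among adhesion, protease, coagulation and complement lists, that of matrix metalloproteinases and inhibitors had the largest share of higher members. Vcam1, an adhesion ligand of activated endothelium and macrophages, was at 229.8 with PBS, 968 with OVA, 1417 with OVA+Alum, 932 with AEPS and 1084 with OVA+AEPS (2.07 ± 0.20). The hyaluronan receptor gene Cd44 was at 9956 with PBS and 20162 with OVA (1.02 ± 0.20), but its further probes gave 0.21, 1.30 and 2.24. Of 28 matrix metalloproteinases and inhibitors, 8 were higher (28.6%) and 1 lower (3.57%), against 6.67% and 4.08% over all genes. Without the slide column pattern, 7 of 27 were higher. Timp1, an inhibitor induced in inflammation, was at 1572 with PBS, 7599.5 with OVA, 8424 with OVA+Alum, 15295 with AEPS and 15166 with OVA+AEPS (2.27 ± 0.20). Mmp14 (1.51 ± 0.21), Mmp25 (1.55 ± 0.21) and the aggrecanase gene Adamts4 (1.87 ± 0.23) were higher as well. F3, the tissue factor gene, was lower, at 679 with PBS, 301 with OVA, 1336 with OVA+Alum, 1353 with AEPS and 1215 with OVA+AEPS (-1.17 ± 0.20), and below PBS on the OVA array only, while the thrombomodulin gene Thbd was lower at 643 with PBS and 262 with OVA (-1.29 ± 0.20). Of 28 complement genes, 2 were higher and 1 lower, and C3 (0.06 ± 0.20) and C1qa (-0.67 ± 0.20) were under 2-fold.

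Antigen presentation genes hardly differed. None of 27 MHC class I and processing genes and none of 16 MHC class II genes reached 2-fold. H2-K1 was at 197496 with PBS and 176376 with OVA (-0.16 ± 0.20), H2-Ab1 at 258324 with PBS and 224998 with OVA (-0.20 ± 0.20) and the invariant chain gene Cd74 at 219926 with PBS and 158459 with OVA (-0.47 ± 0.20). The co-stimulatory ligand genes Cd80 (0.00 ± 0.20), Cd86 (0.56 ± 0.20) and Cd40 (0.41 ± 0.20) were under 2-fold too, and a further probe of Cd80 gave 0.92. Of 31 co-stimulatory and checkpoint genes, 4 were higher and 1 lower. Besides Icosl, Ctla4 and Tnfsf9, the higher gene was Havcr2, the TIM-3 gene, at 22.6 with PBS and 45.3 with OVA. The lower one was Slamf8, at 822 with PBS and 312 with OVA (-1.40 ± 0.20).

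Enzymes that use arginine and tryptophan differed in both directions. Nos2, the inducible nitric oxide synthase, was at 1412 with PBS, 4026 with OVA, 2346 with OVA+Alum, 6130.4 with AEPS and 8135 with OVA+AEPS (1.51 ± 0.20), whereas Arg1, which competes for the same substrate, was at 5241 with PBS, 1980.1 with OVA, 881 with OVA+Alum, 1916 with AEPS and 2396 with OVA+AEPS (-1.40 ± 0.20). Acod1, which makes itaconate, was at 43848 with PBS, 135584 with OVA, 95564 with OVA+Alum, 212529 with AEPS and 215631 with OVA+AEPS (1.63 ± 0.20). Ido2 was at 20.3 with PBS and 226 with OVA (3.47 ± 0.28), and Ido1, of the slide column pattern, was above background with OVA only, at least 3.35-fold higher. Of 26 alternative activation genes, 3 were higher (11.5%) and 3 lower (11.5%), against 6.67% and 4.08% over all genes. Retnla was at 70781 with PBS and 80262 with OVA (0.18 ± 0.20) and Mrc1 at 1363 with PBS and 1132 with OVA (-0.27 ± 0.20), while the lipid sensor gene Pparg was lower (-1.03 ± 0.21).

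Among 37 glycolysis and HIF target genes, 4 were higher (10.8%) and none lower, against 6.67% and 4.08% over all genes. The list median was -0.20, and without the slide column pattern 3 of 36 were higher. Pfkfb3, an activator of glycolysis, was at 8162 with PBS and 24307 with OVA (1.57 ± 0.20), Hif1a at 937 with PBS and 1991 with OVA (1.09 ± 0.20) and the oxygen sensor gene Egln3 at 244 with PBS and 815 with OVA (1.74 ± 0.20). Ldha was at -0.24 ± 0.20 and Vegfa at -0.81 ± 0.21. Of 38 iron and haem genes, 6 were higher (15.8%) and 3 lower (7.89%), with a median of -0.09. Slc40a1, the iron exporter ferroportin, had a signal of 568 with PBS, 2088 with OVA, 3183 with OVA+Alum, 218 with AEPS and 134 with OVA+AEPS (1.88 ± 0.20), above PBS on the OVA and OVA+Alum arrays and below it on both AEPS arrays. Hmox1, which breaks down haem, was at 4394 with PBS and 4094 with OVA (-0.10 ± 0.20). Sterol synthesis genes had 1 of 30 members higher and a median of -0.30.

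Lipid mediator and purine genes held further calls. Ptgs2, the inducible cyclooxygenase, was at 1537 with PBS and 2607 with OVA (0.76 ± 0.20) and Ptgs1, the constitutive one, at 13323 with PBS and 7143 with OVA (-0.90 ± 0.20), both under 2-fold and opposite in sign. Pla2g4a, which frees arachidonic acid, was higher (599.7 with PBS and 2131 with OVA, 1.83 ± 0.20, slide column pattern). The thromboxane receptor gene Tbxa2r (-1.15 ± 0.20) and the epoxide hydrolase gene Ephx2 (-1.28 ± 0.20) were lower. Of 24 purinergic genes, 3 were higher (12.5%, against 6.67% over all genes). They were P2ry10 (644 with PBS and 2269.5 with OVA, 1.82 ± 0.20), P2ry13 (274 with PBS and 813 with OVA, 1.57 ± 0.20) and Entpd3 (119.9 with PBS and 372 with OVA, 1.63 ± 0.21). The ATP receptor gene P2rx7 was at -0.17 ± 0.20.

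Heat shock and stress response lists had shares of calls near those of all genes (6.67% higher and 4.08% lower). Of 28 heat shock genes, 2 were higher (7.14%) and 1 lower (3.57%), with Hspa1a at 515 with PBS and 242 with OVA (-1.09 ± 0.20) and Hsp90aa1 at 1559 with PBS and 4559.5 with OVA (1.55 ± 0.20, slide column pattern). Of 32 genes of the integrated stress and unfolded protein responses, 1 was higher (3.12%) and 2 lower (6.25%), and Atf4 was at 0.13 ± 0.20. The cystine transporter gene Slc7a11 was the higher one, at 65.2 with PBS and 272 with OVA (2.06 ± 0.21). Of 41 apoptosis regulators, 5 were higher, 3 of them in the slide column pattern, without which it was 2 of 38, and Bcl2l11, the BIM gene, was at 409 with PBS and 1238 with OVA (1.60 ± 0.20). The cell cycle inhibitor gene Cdkn1a was lower, at 6766 with PBS and 2955 with OVA (-1.20 ± 0.20).

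Of 20 clock genes, 4 were higher and 1 lower. Nr1d1, the Rev-erbα gene, was at 30.3 with PBS, 115 with OVA, 239.9 with OVA+Alum, 42.8 with AEPS and 177 with OVA+AEPS (1.92 ± 0.24), and Dbp, one of its partners in the clock, was at 1501 with PBS and 1498 with OVA. Cell cycle genes had 5 of 48 members higher (10.4%) and 3 lower (6.25%), with a median of -0.41. For 35 of the 48, the signal was highest on the PBS array, an order not particular to this list. It also held for 42 of 57 oxidative phosphorylation genes and 47 of 69 ribosomal protein genes, lists without a 2-fold call. Ccnd1, the cyclin D1 gene, was lower, at 1773 with PBS, 355 with OVA, 237 with OVA+Alum, 243 with AEPS and 204 with OVA+AEPS (-2.32 ± 0.20), and E2f1 was at 590.5 with PBS and 288 with OVA (-1.04 ± 0.20). Mki67 was higher, at 592 with PBS and 2581 with OVA (2.13 ± 0.20, slide column pattern), but the other proliferation genes Top2a (-0.16 ± 0.21) and Ccnb1 (-0.01 ± 0.21) were not. Among 69 ribosomal protein genes the median was -0.18, with Rplp0 at -0.26 ± 0.20. Of the housekeeping genes, Actb differed by -0.23 ± 0.20, Gapdh by -0.43 ± 0.20, Tbp by -0.12 ± 0.20 and Hprt by 0.73 ± 0.20.

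The genes with the largest differences were mostly outside these lists. Among genes above background on both arrays, Cldn22, a tight junction gene, was highest, at 16.4 with PBS, 824 with OVA, 4.91 with OVA+Alum, 5.97 with AEPS and 10.2 with OVA+AEPS (5.65 ± 0.30). It was thus high on the OVA array alone. The same held for Dnajc5b (16.8 with PBS, 263 with OVA, 9.79 with OVA+Alum, 5.63 with AEPS and 25.1 with OVA+AEPS, 3.97 ± 0.33), the kinase gene Pak6 (20.4 with PBS, 268 with OVA, 10.2 with OVA+Alum, 9.87 with AEPS and 15.4 with OVA+AEPS, 3.71 ± 0.27) and the platelet glycoprotein gene Gp1bb (20.3 with PBS, 184 with OVA, 30.3 with OVA+Alum, 20.2 with AEPS and 19.5 with OVA+AEPS, 3.18 ± 0.27). For Gp1bb the median over its probes was -0.10. Others among the 15 largest were above PBS on each of the 4 other arrays. Klra17, a Ly49-like receptor gene, was at 48.4 with PBS, 592 with OVA, 273 with OVA+Alum, 306 with AEPS and 242 with OVA+AEPS (3.61 ± 0.22), and a further probe of it gave 3.35. The epithelial factor gene Ehf (3.73 ± 0.30) and the cytoskeletal regulator gene Cdc42ep1 (3.52 ± 0.21) were others, and a further probe of Ehf gave 1.24.

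On the lower side, the largest difference among genes above background on both arrays was that of Epha2, an ephrin receptor gene (-4.77 ± 0.21). It was at 2531 with PBS, 92.7 with OVA, 198 with OVA+Alum, 86.8 with AEPS and 76.9 with OVA+AEPS. Its signal was high with PBS alone. Shank3, a synaptic scaffold gene, was at 203 with PBS, 11.5 with OVA, 6.54 with OVA+Alum, 22.3 with AEPS and 20.9 with OVA+AEPS (-4.14 ± 0.36). A further probe of Shank3, above background with PBS only, gave -1.02. The tachykinin gene Tac4 was at 141 with PBS, 13.1 with OVA, 19.5 with OVA+Alum, 5.67 with AEPS and 14.6 with OVA+AEPS (-3.43 ± 0.34). The pattern of a high PBS array also held for Ccnd1 and Ackr3 above. Abcc8, a subunit gene of a potassium channel, was at 2666 with PBS and 326 with OVA (-3.03 ± 0.20), but a further probe of it was above background with OVA only.

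Some genes crossed the background between the 2 arrays. With OVA only, the largest bound was that of Ttpa, the vitamin E transfer protein gene, which had a signal of 2.45 with PBS, 821 with OVA, 2.09 with OVA+Alum, 2.81 with AEPS and 2.60 with OVA+AEPS and was at least 67.9-fold higher. The pheromone receptor pseudogene Vmn2r-ps129 (at least 36.2-fold), Il17b above, Srgap1 (at least 21.2-fold) and Tmem45b (at least 19.8-fold) followed. Ppargc1a, a regulator of mitochondrial biogenesis, was at least 15.1-fold higher as part of the slide column pattern. With PBS only, the largest bound was that of Adm2, a vasodilator peptide gene, at 271 with PBS, 4.72 with OVA, 3.51 with OVA+Alum, 14.1 with AEPS and 9.94 with OVA+AEPS, at least 25.7-fold lower. Pdk4, a starvation- and glucocorticoid-induced kinase gene, was at 70.6 with PBS, 8.15 with OVA, 7.08 with OVA+Alum, 4.48 with AEPS and 9.11 with OVA+AEPS, at least 6.69-fold lower.

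The called genes were last sorted by their signal on all 5 arrays. Of the 1003 higher genes, 223 had a PBS signal at least 2-fold below each of the 4 other arrays, and 161 had an OVA signal at least 2-fold above each of the others. Together with the 163 genes of the slide column pattern, and counting genes in more than 1 class once, this left 473. The first class had a median signal of 155 with PBS and 536 with OVA, and 175 of its 223 genes were above background on both arrays. In the second class the median was 4.15 with PBS and 66.6 with OVA, and 43 of 161 were above background on both. Further probes read the same RNA on the same arrays, so they check the probe, not the sample or its place on the slide. The 2 classes also differed in signal, as given above. Of 43 genes of the first class with a further measured probe, 34 had one that was also at least 2-fold higher and none had one that was 2-fold lower. Of 6 such genes of the second class, 1 had a further probe in the same direction and 1 in the opposite one.

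Of the 614 lower genes, 202 had a PBS signal at least 2-fold above each of the other arrays and 42 an OVA signal at least 2-fold below each of the others. For the former, the median signal was 79.5 with PBS and 16.9 with OVA, and a further probe gave the same call for 11 of 19 genes and the opposite call for 1. For the latter it was 18.8 and 5.12, with the same call for 2 of 3. Over all higher genes, a further probe gave the same call for 132 of 211 and the opposite call for 2, and over all lower genes for 25 and 4 of 58.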

How the data were processed

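Single-colour Agilent arrays (Cy3) were deposited as scanner files. Per the file headers, the authors made the linear intensity values with Agilent Feature Extraction 10.7.1.1 (protocol GE1_107_Sep09), which corrected background within each array, and the spot flags deposited beside them are other values of 0 or 1. The series table that was deposited gives log2 values, taken as quantile-normalized because the sorted values of its 5 columns nearly coincide (median 4.66 in each), and it served as an alternative.

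Each array had 62976 spots. Control spots (3671) and outlier spots (134 with PBS and 156 with OVA) were left out, and none was saturated. The log2 processed signal minus that of the array's 75th percentile was averaged over spots of a probe. Of 55681 probes, 26582 matched 1 gene symbol through a RefSeq transcript of GRCm38.p6, none matched several and 29099 none. The brightest probe stood for a gene. On the PBS and OVA arrays 59.5% and 59.3% of probes were well above background, and on the others 56.7% to 60.0%, and the number of arrays limits the precision. Bounds used, on the dim array, the higher of the gene's signal and the lowest signal well above background. Of 1807 listed symbols, 1804 matched.

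A set of genes for naming was drawn up by rule, and only a part of it is printed above. It held the 15 largest differences each way above background on both arrays and the 10 largest bounds each way. From each list it took the first 4 members and the 6 members with the largest differences. The first 8 housekeeping genes and the 5 symbol families with the highest and lowest medians were also in the set. Xist, Pycard, Rtp4, Bmp6, Il1r2, Cd177, Anxa1, Gzmk and Mmp14 were chosen after their values were seen. The comparison, the lists and their members were chosen with earlier results of these data known. Alternatives were other scalings, normexp (limma 3.58.1, offset 50) with quantile normalization, the deposited table, other filters on dim probes and other choices of probe. Scripts (Python 3.11.15, R 4.3.3) were tested on simulated data.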

Additional observations from a re-analysis of the deposited data

How the results depend on the processing

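Each group had 1 array, so no array could be left out. No paired analysis was possible because the groups compared share 1 replicate number only. The counts of 1003 higher and 614 lower genes became 1531 and 344 with spike-in scaling, 511 and 127 after normexp with quantile normalization, and 347 lower genes remained when both arrays had to be above background. With no filter on dim probes, 1126 genes were lower. The 2346 probes higher with OVA than with PBS became 1406 when both arrays had to be above background. The 1807 probes lower with OVA than with PBS became 851 with that filter, 1020 with spike-in scaling and 3899 with no filter. List medians kept to the main value within the set limit in 621 cases and moved further in 90. Spike-in scaling turned the sign of 33 of 79 list medians, all below 0 before, and the other 8 alternatives turned 1 to 15. Of 39 medians below 0, 6 stayed there: red cell, scavenger receptor, cell cycle, prostaglandin and leukotriene, sterol synthesis and B cell lists. Of all genes in the set drawn up for naming, printed here or not, 214 were higher and 74 lower. All 214 and 57 of 74 kept their call with spike-in scaling, and 159 and 48 with normexp and quantile normalization. The sign turned for 1 gene, Gp1bb, whose difference of 3.18 became -0.10 by the median over its probes; the cause was not tested. The scanner's error model does not hold the spread between mice.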

Other observations

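Genes grouped by the letters of their symbol gave families that no functional list holds. Of 307 measured zinc finger genes named Zfp, 44 were higher with OVA (14.3%) and 3 lower, with a median of 0.17. Over all genes 6.67% were higher and the median was -0.14. The median signal of the Zfp genes was 198, within the second dimmest quintile, where 8.41% of all genes were higher and 3.26% lower. Of the 44 higher genes, 15 belong to the slide column pattern. The olfactory receptor genes (Olfr) had the lowest median of any family, -0.47 over 250 genes, with 19 higher and 44 lower (17.6%). Their median signal was 24.9, within the dimmest quintile of genes, where 12.6% of all genes were lower. The pheromone receptor family Vmn (53 genes, median -0.45) and the cytochrome P450 family Cyp (58 genes, median -0.42) were next lowest.

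Probes without a gene symbol made up a large part of the array. Of 16194 probes for intergenic transcripts named by their position, 48.3% were measured, against 73.5% of probes with a gene symbol. Of the 7815 measured, 537 were higher (6.87%) and 619 lower (7.92%), with a median of -0.27. Among 19535 measured probes with a gene symbol these shares were 6.72% and 3.89%. Over all 34730 measured probes, 2346 were higher (6.75%) and 1807 lower (5.2%).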
